A study of Drosophila melanogaster with 3 samples.

Results

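The autophagy genes described here are 10 genes of Drosophila melanogaster that encode core machinery of autophagosome formation: Atg1, Atg2, Atg3, Atg5, Atg6, Atg7, Atg8a, Atg8b, Atg9 and Atg13. They were taken by name from the Release 6 annotation, in dm6 coordinates, and all 10 were found among its 13945 protein-coding genes on the main chromosome arms. A peak was assigned to a gene when its summit lay in the gene body or within 2 kb of either end, a span called the window of the gene, and every peak was ranked by signal value within its own list, so that rank 1 is the strongest. No peak value served as a criterion for the genes, but they were chosen with earlier results of these data known.

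The protein studied by chromatin immunoprecipitation followed by sequencing (ChIP-seq) was acj6, a POU-homeodomain transcription factor of class IV that is best known from the identity and wiring of olfactory neurons. A transgenic line carried acj6 with GFP at the C-terminus as a stable insertion, and chromatin of whole white prepupae, males and females pooled, was precipitated with an antibody against GFP. The single group held 3 biological replicates and had neither a second genotype nor a second stage, so that all values below describe 1 condition. Whole animals mix every tissue, and the lists do not tell in which cells a site was occupied. The deposited lists held 30000 regions for each replicate and for the pooled replicates, background included. A further list held 8248 peaks past the threshold of the irreproducible discovery rate (IDR), a procedure based on how alike replicates rank their peaks. All 8248 IDR peaks were, in the same order, the strongest of the pooled list, so an IDR rank is also a pooled rank. A place in the IDR list therefore does not show that every replicate holds the peak.

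Autophagy encloses cytoplasm in a double membrane, the autophagosome, and delivers it to the lysosome. A kinase complex with Atg1 and Atg13 starts the process, Atg9 vesicles and the lipid transfer protein Atg2 supply membrane, a phosphatidylinositol 3-kinase complex with Atg6 marks it, and a pair of ubiquitin-like conjugation systems attaches Atg8 proteins to it. In Drosophila, ecdysone induces autophagy in the larval fat body before the puparium forms and in midgut and salivary glands as they are removed during metamorphosis, and the white prepupa lies between these events.

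The sequences around 6 of the 15 summits found at these genes are printed because the results turn on these sites: the strongest peaks of Atg5 and Atg2 lead the set, the inner peak of Atg5 and the stronger peaks of Atg1 lie in introns, and the Atg8a site is the GC-rich contrast. They come from NCBI's Release 6 genome sequence and are written 5′ to 3′ on the strand of the autophagy gene, in lower case, with matches to the searched motifs in capitals. Each runs 100 bp to either side of the summit, except that of Atg2, which was shortened at its 5′ end so that no untranslated sequence is included. Capitals mark the POU-homeodomain core TAATGA, which reads TCATTA on the other strand, and the homeodomain core TAATTA. They also mark the string TATAAA, which reads TTTATA on the other strand, the core GATAAG bound by GATA factors, and the string GAGAG, which reads CTCTC on the other strand.
Atg5 upstream site, rank 270, chrX:7324938-7325138, minus strand: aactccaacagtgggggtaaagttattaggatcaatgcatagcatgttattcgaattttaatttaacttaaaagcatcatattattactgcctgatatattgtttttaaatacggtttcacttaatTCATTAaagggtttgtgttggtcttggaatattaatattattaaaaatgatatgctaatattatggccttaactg
Atg5 intronic site, rank 974, chrX:7319180-7319380, minus strand: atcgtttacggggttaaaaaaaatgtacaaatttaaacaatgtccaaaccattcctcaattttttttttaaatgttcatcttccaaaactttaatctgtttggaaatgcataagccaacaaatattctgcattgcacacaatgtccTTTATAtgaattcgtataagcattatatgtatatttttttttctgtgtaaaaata
Atg2 upstream site, rank 337, chr3L:2774008-2774170, plus strand: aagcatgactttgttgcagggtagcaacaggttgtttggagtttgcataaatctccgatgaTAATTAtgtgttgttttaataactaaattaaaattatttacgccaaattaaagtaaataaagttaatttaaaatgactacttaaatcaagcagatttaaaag
Atg1 intronic site, rank 1170, chr3L:12793132-12793332, minus strand: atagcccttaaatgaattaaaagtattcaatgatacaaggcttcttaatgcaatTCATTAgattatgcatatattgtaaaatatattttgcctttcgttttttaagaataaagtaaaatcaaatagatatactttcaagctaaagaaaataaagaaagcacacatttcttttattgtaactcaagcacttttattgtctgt
Atg1 second intronic site, rank 3534, chr3L:12799042-12799242, minus strand: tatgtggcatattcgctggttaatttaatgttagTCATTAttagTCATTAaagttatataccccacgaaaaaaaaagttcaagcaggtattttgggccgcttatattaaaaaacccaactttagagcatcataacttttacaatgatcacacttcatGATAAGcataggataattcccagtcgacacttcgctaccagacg
Atg8a site, rank 4619, chrX:10767353-10767553, minus strand: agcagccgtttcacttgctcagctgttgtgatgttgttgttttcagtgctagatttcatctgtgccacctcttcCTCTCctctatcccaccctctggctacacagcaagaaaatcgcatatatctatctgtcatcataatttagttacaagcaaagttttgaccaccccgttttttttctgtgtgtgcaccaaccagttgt
The Atg2 summit falls inside the marked TAATTA, whereas the marked letters of both Atg5 sites and both Atg1 sites lie away from the centre. The Atg1 site of rank 3534 holds TCATTA at 2 places.

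Of the 10 genes, 9 had at least 1 IDR summit in the window, and Atg8b had none. The same held for 38.5% of all 13945 protein-coding genes (5370 genes) and for 37.6% of the 11887 genes whose span lay within the range of the 10, from 654 to 20688 bp. The 9 genes held 15 summits, of which 4 belonged to Atg1 and 2 each to Atg5, Atg7 and Atg8a. The best ranks went from 270 (Atg5) and 337 (Atg2), over 1107 (Atg7), 1170 (Atg1) and 1182 (Atg9), to 4520 (Atg13), 4619 (Atg8a), 4865 (Atg6) and 7249 (Atg3). Their median was 1182, against 2428 over all 5370 genes with a summit. A best rank can only gain from further summits in the window, and Atg1 had 4. Over all 15 summits the median rank was 3848, near the middle of the IDR list, and 8 lay among its 4124 strongest peaks. These counts carry no test, because the genes were chosen with earlier results of these data known.

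**Figure D1:**
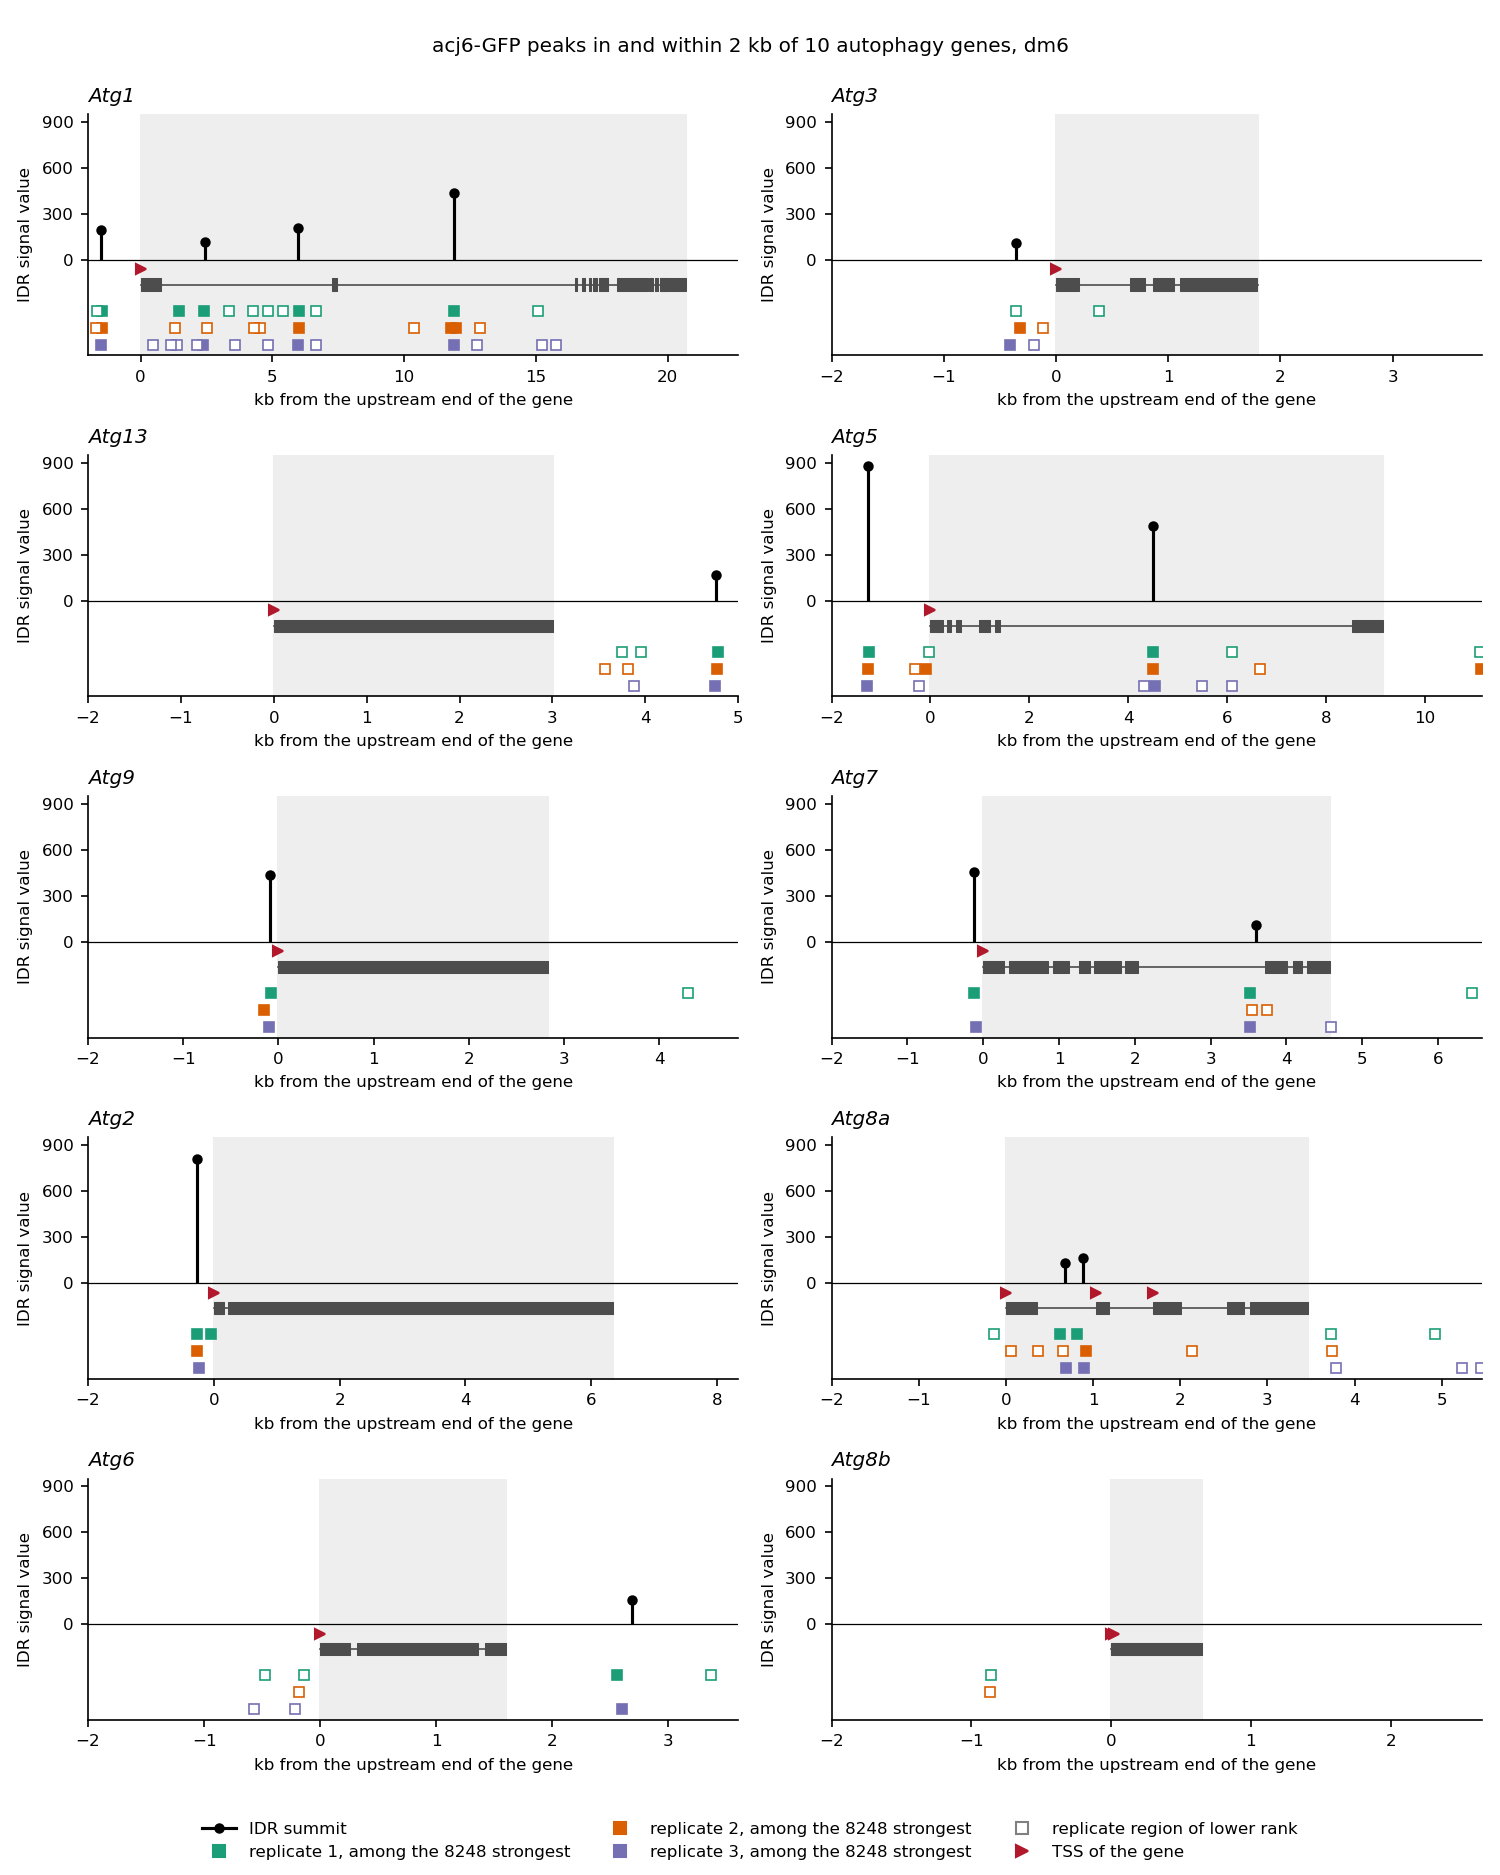
Position of each acj6-GFP peak at the 10 genes, in kb from the upstream end of the gene, drawn 5′ to 3′; stems give the IDR signal value, squares the replicate regions (filled when among the 8248 strongest of the replicate), arrows the transcription start sites, boxes the exons and the shaded band the gene. Atg5 and Atg2 carried the tallest stems (881 and 808), Atg1 carried 4 and Atg8b none.

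Closer to the promoters the picture was less uniform. Only 5 of the 10 genes (Atg2, Atg3, Atg7, Atg8a and Atg9) had an IDR summit within 500 bp of one of their transcription start sites (TSSs), against 20.4% of all protein-coding genes. Of the 15 summits, 7 lay in the body of the autophagy gene, 6 upstream and 2 downstream. The nearest protein-coding TSS belonged to the autophagy gene at 6 summits and to another gene at 9. When a summit counted only for the gene with the nearest TSS, a rule chosen after the data were seen, 4 of the 10 genes kept one (Atg1, Atg5, Atg8a and Atg9), against 23.4% of all protein-coding genes.

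The initiation kinase Atg1 (FBgn0260945, chr3L:12784429-12805116, minus strand) had the longest span, 20688 bp, and its 4 summits were spread over the gene and its upstream side. The strongest (rank 1170, signal value 438) lay 11884 bp into the gene at position 12793232, in a long intron that houses the gene CG42709 on the other strand, one of whose starts was 2014 bp away. Its region ranked 1175 in replicate 1, 1434 in replicate 2 and 1027 in replicate 3, so all 3 replicates placed it close together. The next ones lay in introns at +5974 bp (rank 3534, and 3872, 3142 and 3668 in replicates 1, 2 and 3) and +2433 bp (rank 6716, and 5577, 13391 and 5194). Replicate 2 placed the latter well outside its 8248 strongest, unlike the other 2. The last of the 4 summits (rank 3848, and 5106, 3481 and 3524) was 1512 bp upstream, in an intron of Sap130, 442 bp from its TSS. No IDR, pooled, replicate 1 or replicate 2 region lay within 500 bp of the Atg1 TSS, and replicate 3 had 1 of rank 11862 there. The peaks of Atg1 were thus inner and neighbouring ones, not promoter peaks.

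Atg13, the regulatory partner of Atg1 in the kinase complex (FBgn0261108, chr3R:8349815-8352817, plus strand), had 1 summit at position 8354572, 1755 bp beyond its 3′ end and near the edge of the window. This peak (rank 4520, signal value 168) ranked 3189 in replicate 1, 5782 in replicate 2 and 2971 in replicate 3. Its closest protein-coding TSS was that of stck, 2406 bp away. A stronger peak (rank 926, signal value 500) stood just outside the window, at position 8355163, 2346 bp beyond the gene, and with a window of 5 kb the best rank became 827. The promoter of Atg13 held no region of any list within 500 bp, so its place among the 9 genes rests on a peak past its 3′ end.

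The membrane genes carried promoter peaks in every replicate. Atg9, the scramblase of the vesicles that seed the autophagosome (FBgn0034110, chr2R:16294400-16297232, plus strand), had its summit 93 bp upstream of its TSS at position 16294307. The peak ranked 1182 in the IDR list (signal value 436), 1042 in replicate 1, 1230 in replicate 2 and 1483 in replicate 3. Its nearest TSS was that of Atg9 itself, and the divergent gene CG7747 starts 270 bp away from Atg9. Atg2, which carries lipids from the endoplasmic reticulum to the growing membrane (FBgn0044452, chr3L:2774338-2780677, plus strand), had the second best peak of the set, 268 bp upstream at position 2774070 (signal value 808). This peak ranked 496 in replicate 1, 343 in replicate 2 and 283 in replicate 3, and 4.17% of protein-coding genes had an IDR rank as strong. The summit was closer to the start of the divergent gene CG12093 (63 bp) than to Atg2, so position alone assigns it to either.

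Atg6, the Beclin 1 homologue of the phosphatidylinositol 3-kinase complex (FBgn0264325, chr3R:24049180-24050782, minus strand), had no IDR peak at its promoter. Its summit (rank 4865, signal value 158) was 1085 bp downstream at position 24048095, within the 5′ UTR of CG5986 and 46 bp from the start of Rox8, an RNA-binding protein gene. The overlapping region ranked 7488 in replicate 1 and 3774 in replicate 3, and replicate 2 had none. At the Atg6 promoter, whose start is 1 bp from that of the divergent gene Pisd, the pooled list had a region at −175 bp. It ranked 11038 and fell short of the IDR list. The best regions within 500 bp of the start ranked 9993 (−479 bp), 11070 (−178 bp) and 14430 (−217 bp) in replicates 1, 2 and 3. Closer to the pooled region, replicate 1 had one of rank 15895 at −143 bp. All of these lie within the span of Pisd. Atg6 therefore had lower-ranked regions near its own start in every replicate and its IDR peak at its neighbours.

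The conjugation genes ranged from the strongest peak of the set to none. Atg5, which joins Atg12 and Atg16 in the complex that promotes Atg8 lipidation (FBgn0029943, chrX:7314622-7323770, minus strand), had the strongest peak of all 15, with signal value 881. It lay 1268 bp upstream at position 7325038, in an intron of the divergent gene Dok, 824 bp from the Dok TSS, and inside an intron of CG1677, which spans the whole locus. The peak ranked 263 in replicate 1, 242 in replicate 2 and 320 in replicate 3, and 3.5% of protein-coding genes had an IDR rank as strong. The inner Atg5 peak (rank 974, signal value 489), 4490 bp into the gene in its long intron, ranked 1199, 831 and 1046. Both sites were thus near the top of every list. At the Atg5 start itself, at −127 bp, the pooled list had a region of rank 8382, just past the last of the 8248 IDR peaks, and the best regions within 500 bp ranked 23396, 5688 and 8900 in replicates 1, 2 and 3. That promoter stood just outside the threshold and differed between replicates more than the other sites of Atg5 did.

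Atg7, the E1-like enzyme that activates Atg8 and Atg12 (FBgn0034366, chr2R:18620466-18625044, minus strand), had a promoter peak in only some of the lists. The summit at position 18625160 (rank 1107, signal value 456) was 116 bp upstream of Atg7 and 89 bp from the start of the divergent gene Sec6, an exocyst subunit. It ranked 1181 in replicate 1 and 1036 in replicate 3, but replicate 2 had no region there at all. Of the 2062 strongest IDR peaks, 11 (0.533%) had no region of replicate 2. The other Atg7 peak (rank 6971), in the intron at +3592 bp and 89 bp from the start of the nested gene CG5335, ranked 5415, 16727 and 5544. Replicate 2 had another region with its summit in the interval of this peak, at +3747 bp with rank 9098, but the match went to the nearer summit. That 9098 was the best rank of replicate 2 in the whole Atg7 window, against 1181 and 1036 in replicates 1 and 3.

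Atg3, the E2-like enzyme that transfers Atg8 to lipid (FBgn0036813, chr3L:18748687-18750483, plus strand), had the weakest peak of the 9 genes. Its summit (rank 7249, signal value 108) was 356 bp upstream at position 18748331, in the 5′ UTR of the divergent gene Nufip and 36 bp from the Nufip TSS. The overlapping region ranked 17629 in replicate 1, 5623 in replicate 2 and 4827 in replicate 3, so replicate 1 had it far outside its 8248 strongest. Beyond the 3′ end of Atg3, tail to tail with it, lies ftz-f1, an ecdysone-response nuclear receptor gene, and no IDR summit lay between the 3′ end of Atg3 and the limit of the window.

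The Atg8 genes encode the ubiquitin-like proteins that coat the autophagosome, and they differed in whether they had a peak. Atg8a, the main Atg8 gene in most tissues (FBgn0052672, chrX:10764878-10768338, minus strand), has 3 TSSs, and both of its summits lay in the first intron, upstream of the second TSS. The stronger (rank 4619, signal value 165, position 10767453) was 147 bp from that start and ranked 3437, 5261 and 4036 in replicates 1, 2 and 3. The weaker (rank 5927, signal value 132, position 10767661) was 355 bp from it and ranked 7139, 11738 and 5877. The deposited intervals of these 2 peaks overlap, so they may describe a single stretch of chromatin. No IDR peak stood at the outermost start of Atg8a, which faces BTBD9 at 199 bp. Atg8b, a short gene with a role in the male germ line (FBgn0038539, chr3R:17724410-17725063, minus strand), had no IDR peak. Its only regions were upstream and weak, with rank 20727 in the pooled list (at −752 bp), 22468 in replicate 1 (−857 bp) and 25761 in replicate 2 (−865 bp), and replicate 3 had none in the window.

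**Figure D2:**
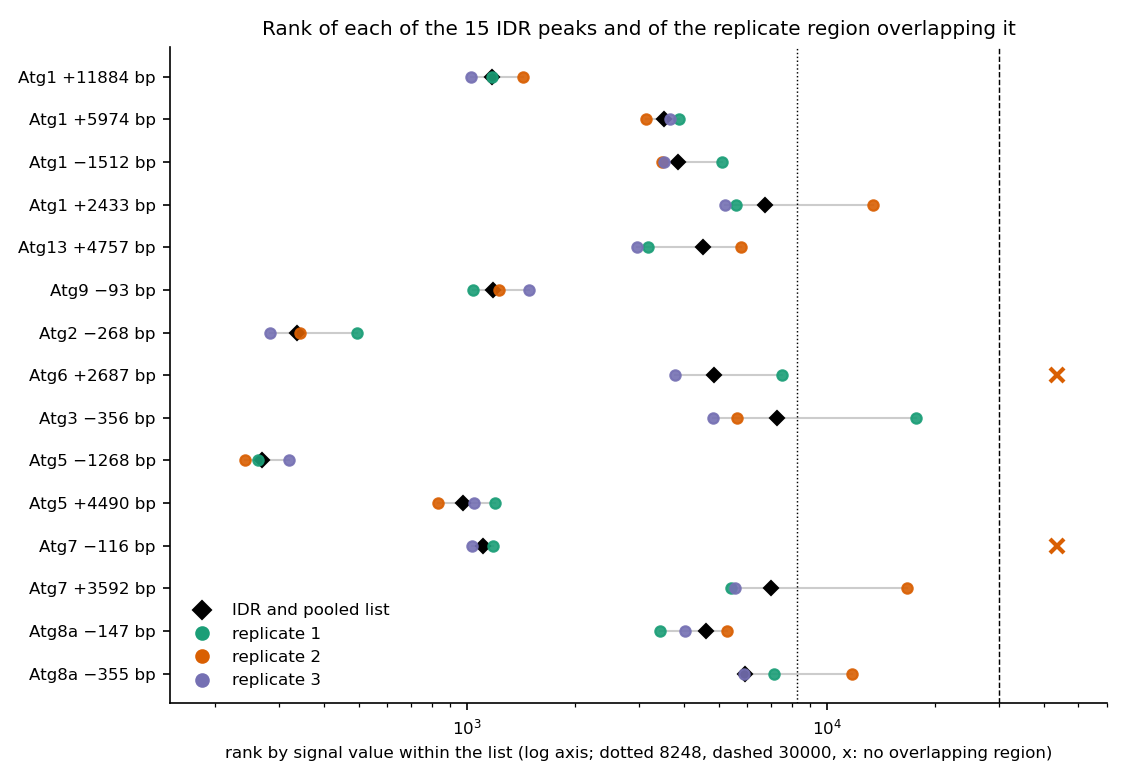
Rank of the 15 IDR peaks (diamonds) and of the overlapping region of each replicate (dots) on a log axis, labelled by gene and by distance from its nearest start in bp; the dotted line is rank 8248, the dashed line the list length of 30000, and a cross marks a replicate with no overlapping region. The strong sites of Atg5, Atg2, Atg9 and Atg1 sat close together in all 3 replicates, and both crosses belong to replicate 2.

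How well the replicates repeated a site differed from gene to gene. Of the 15 peaks, 10 were overlapped by one of the 8248 strongest peaks of every replicate and the other 5 by those of 2 replicates, against 76.6% of all IDR peaks overlapped in all 3. Replicate 3 covered 15 of the 15 in this way, replicate 1 14 and replicate 2 11. Regions of any rank were present in all 3 replicates at 13 of 15 peaks, against 98.5% of all IDR peaks. The matched summits were 22 bp apart in the median over 43 regions, and at most 129 bp. Over all IDR peaks the median was 19, 18 and 12 bp in replicates 1, 2 and 3. Taking the overlapping region with the nearest summit keeps these distances small.

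Counted by gene, 8 of the 10 had a summit in the window among the 8248 strongest of replicate 1, against 40.7% of protein-coding genes. For replicate 2 the count was 7 of 10, against 38.5%, and for replicate 3 it was 9 of 10, against 40.2%. Atg3 was missing in replicate 1, Atg6 and Atg7 in replicate 2, and Atg8b in all 3. When at least 50% of the length of an IDR peak had to be covered by a single strong peak in every replicate, 6 of 10 genes remained (Atg1, Atg2, Atg5, Atg8a, Atg9 and Atg13), against 31.1%. Read numbers are not part of the files, replicate depth is therefore unknown, and the 3 lists have equal length whatever the depth was.

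**Figure D3:**
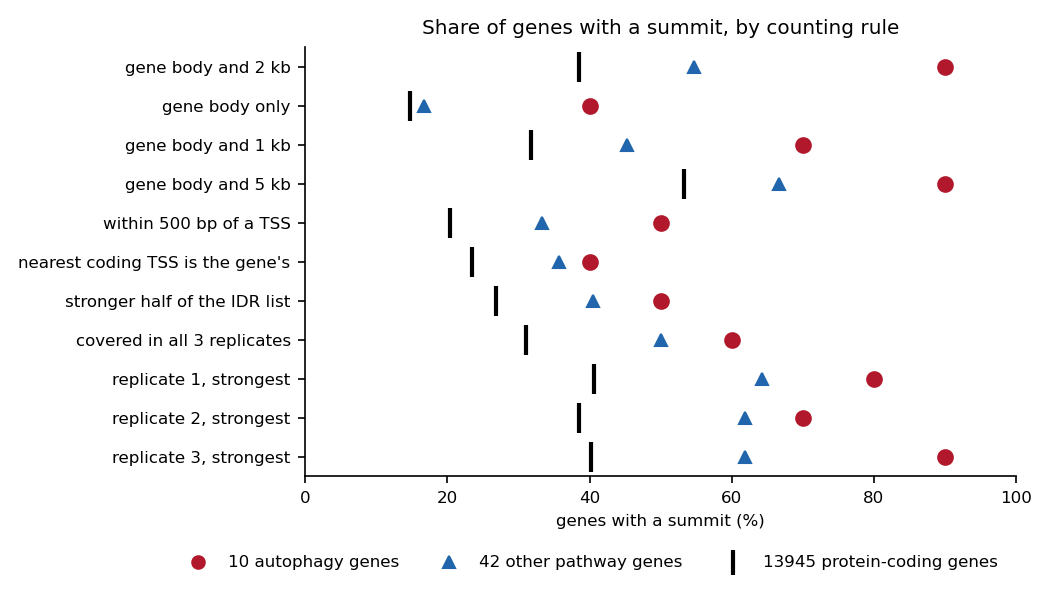
Percent of genes with a summit under each counting rule, for the 10 autophagy genes (circles), 42 other pathway genes (triangles) and all 13945 protein-coding genes (bars). Under the rule of gene body and 2 kb the circles stand at 9 of 10 and the bar at 38.5%; under the nearest TSS rule they stand at 4 of 10 and 23.4%.

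Most of these genes sit in dense neighbourhoods. A protein-coding gene on the other strand with its start facing that of the autophagy gene within 1 kb was annotated for 9 of the 10, all but Atg13, against 33.3% of all protein-coding genes. Within 500 bp it was 7 of 10, against 25%. This property was looked at after the peaks had been seen. Among all protein-coding genes, a summit within 500 bp of a TSS was found for 32.6% of the 4650 with such a facing gene and for 14.3% of the 9295 without one, and a summit in the window for 48.4% of the former. An IDR summit lay between the facing starts of Atg9 and CG7747, of Atg2 and CG12093 and of Atg7 and Sec6. Of the 15 summits, 12 (80%) lay in the windows of at least 2 protein-coding genes. Among the 6962 IDR summits that lie in any such window, 39.3% did. These shares are not alike, because the 15 were reached through the windows of chosen genes, and a summit in several windows is more easily reached. The 6962 count each summit once, so the difference is not read as a trait of the 10 genes.

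By feature, introns held most of the 15 summits. An intron held 9 (60%, against 64.3% of the 6962), sequence outside protein-coding genes held 4 (26.7%, against 28.5%) and a 5′ UTR held 2 (13.3%, against 5.27%), and neither coding exons nor 3′ UTRs held any. Within 500 bp of any protein-coding TSS lay 9 (60%), against 35.3%. The 15 were reached through gene windows, which favours summits shared by several genes, whereas each of the 6962 counts once. With 15 summits, a single one moves such a share by several percentage points.

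Within 100 bp of the 15 summits, GC content was 33.8% ± 6.83 (SD over summits), against 34.0% ± 6.26 for all IDR summits. Promoter windows of the same length, 1 for each of the 13945 protein-coding genes and ending at a TSS, had a mean of 38.6%. Among the 15 summits GC content ran from 24.4% at the strongest Atg1 site to 47.3% at the weaker Atg8a site. The printed Atg8a sequence has 43.3%. The longest unbroken run of A and T had a median of 17 bp, against 12 bp over all IDR summits. The POU-homeodomain core TAATGA was found on either strand at 4 summits (the 2 printed Atg1 sites, the upstream Atg5 site and the Atg9 promoter), against 16.2% of all IDR summits and 12.3% of promoters. The longer class IV POU form ATTAATGAG, which contains TAATGA, was at 0 of 15, against 0.364% and 0.237%, and the octamer ATGCAAAT was at 1 (Atg9), against 3.18% and 2.56%. The homeodomain core TAATTA was at 2 (Atg2 and Atg9), against 18.4% and 15.5%.

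Letters of general promoter elements and of sites of other factors were searched in the same windows. TATAAA was at 5 summits, against 39.3% of IDR summits and 37.0% of promoters, and GAGAG at 3, against 20.2% and 22.2%. GATAAG was at 1, against 9.74% and 14.9%, and GGTCACAC, the core of the element called Motif 1, was at 1 (Atg3), against 1.08% and 3.74%. The DRE TATCGATA (1.76% and 7.39%), the CACGTG of Mitf, the fly homologue of the lysosomal regulator TFEB (1.54% and 2.23%), and the nuclear receptor half-site AGGTCA (4.22% and 3.83%) were at 0 of 15. Several counts moved with the width searched. Within 50 bp of the summits TAATGA was at 2, the homeodomain core TAATTA at 1, TATAAA at 3, and the octamer and GATAAG at 0. Within 150 bp the class IV POU form, the DRE and Motif 1 were at 1, 1 and 2, AGGTCA was at 2, GATAAG at 3 and GAGAG at 6. None of these counts was tested, and a match is a string of letters, not a shown site. At least 1 of the 11 strings was found at 12 of 15 summits, against 74.4% of all IDR summits and 75.7% of promoters. The promoter peak of Atg7, the inner Atg1 peak of rank 6716 and the Atg13 peak held none of them.

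The rest of the pathway is described by counts, with no test between lists. Of 42 other genes, 23 had an IDR summit in the window and 14 within 500 bp of a TSS, against the 38.5% and 20.4% of all protein-coding genes. In the initiation complex both had one: Atg17, the scaffold protein of the complex, had a summit 228 bp upstream (rank 453) that was closer to the start of Xe7 (151 bp), and Atg101 one of rank 3354 near S6KL. Of the 2 membrane genes, Atg18a, a phosphoinositide-binding protein, had a promoter peak at +21 bp (rank 942). Of 4 further genes of the phosphatidylinositol 3-kinase complex, 3 had a summit: Vps15 (rank 1558, 366 bp from the start of CG8420), the catalytic subunit gene Pi3K59F (rank 2411, 117 bp from the start of its neighbour apt) and Uvrag (rank 2530). Of 5 further conjugation genes, Atg12 (rank 1965, 92 bp from the start of its neighbour ND-SGDH) and the protease gene Atg4a (rank 5813) had one.

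**Figure D4:**
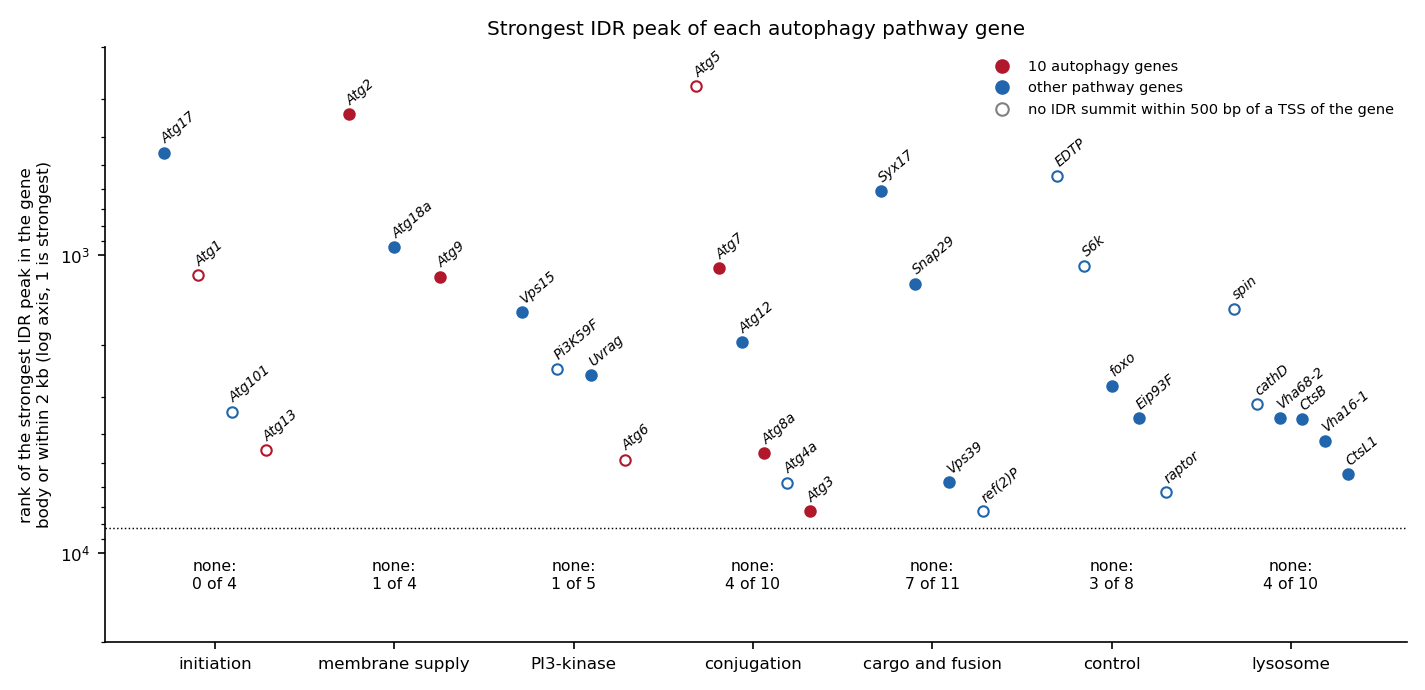
Rank of the strongest IDR peak in the window of each pathway gene on a log axis (strongest at the top), grouped by role; open symbols mark genes without an IDR summit within 500 bp of a TSS, the dotted line is rank 8248, and the text under it counts the genes with no IDR summit. Atg5, Atg2 and Atg17 stand highest. Cargo and fusion, the longest list, has 7 of 11 genes without a summit. Its share with a summit is close to the 38.5% of all protein-coding genes.

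Outside the core, each count below stands beside the 38.5% of all protein-coding genes with a summit in the window. The count for cargo recognition and fusion is close to that share. The control list includes long genes, with spans of 65426 bp (Eip93F) and 31034 bp (foxo). In cargo recognition and fusion, 4 of 11 had a summit, namely the fusion SNARE genes Syx17 (rank 608, 125 bp from the start of TP53INP) and Snap29 (rank 1246, 102 bp upstream of its TSS), Vps39 (rank 5801) and the cargo receptor gene ref(2)P (rank 7236, 485 bp from the start of CG10337). In the control of autophagy it was 5 of 8: the phosphoinositide phosphatase gene EDTP (rank 541, nearest to the start of CG18467), the growth kinase gene S6k (rank 1086), foxo (rank 2752), Eip93F, the ecdysone-induced regulator of fat body autophagy (rank 3521), and raptor (rank 6248, 190 bp from the start of Nep1). The lysosome list had 6 of 10: spin (rank 1512), cathD (rank 3172, 60 bp from the start of phr), the proton pump subunit genes Vha68-2 (rank 3512) and Vha16-1 (rank 4197), CtsB (rank 3555) and CtsL1 (rank 5445, 81 bp from the start of Rpn13). The peak of spin ranked 11694 in replicate 1, against 1289 and 1325 in replicates 2 and 3.

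The promoters of mTor and Atg4b held strong regions in replicates and yet none in the pooled and IDR lists. At mTor, the kinase that represses autophagy in fed cells, a region upstream of the TSS ranked 1157 in replicate 1 (at −245 bp), 852 in replicate 2 (−265 bp) and 1223 in replicate 3 (−222 bp), with no overlapping pooled region. At the protease gene Atg4b, regions ranked 1322 in replicate 1 (−140 bp) and 1225 in replicate 3 (−110 bp), with none in replicate 2 and none in the pooled list. A region of rank 1850 in replicate 2, 4367 bp from the TSS of the fusion gene dor and past its 3′ end, also had no pooled one. Such cases were rare: of the 2062 strongest regions of each replicate, 23 (1.12%), 18 (0.873%) and 31 (1.5%) had no pooled region, and of 1638 regions strong in every replicate, 5 had none. The reason was not tested. mTor and Atg4b counted as genes without a summit in the 23 of 42.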

How the data were processed

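Per the labels, sonication gave fragments of 200 to 800 bp. Which aligner, peak caller and IDR threshold were used is not given in the sources used here, and the control experiment was not analysed here. A replicate list comes from 1 alignment and a control file shared by all 3 replicates, as the notes deposited beside the lists state. The deposited signal value of a peak is the authors' own, has no common scale across lists, and served only to rank peaks within a list. Whether the replicates were separate cultures is not stated in the labels. Lists in the older build dm3 were not used here.

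The summit was the start plus the deposited offset. Genes came from Ensembl release 115 and sequence from NCBI's Release 6 genome. A replicate region matched an IDR peak when they overlapped by at least 1 bp, and the one with the nearest summit was taken. Motifs were searched on both strands within 100 bp of each summit.

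The 10 genes, the 7 pathway lists and the motifs were chosen with earlier results of these data known. All 10 genes were named, other pathway genes where they held an IDR summit, and neighbours where their TSS was nearest to a summit of the 10 genes. mTor, Atg4b, dor, Epg5, car, the facing genes, ftz-f1 and the neighbours of other pathway genes were named after their values were seen. No test was made, since there is 1 group and the genes were chosen with those results known. Alternatives covered window, TSS distance, summit definition, peak strength, coverage and leaving out each replicate. The calculations used Python 3.11.15, numpy 2.4.6 and pandas 2.3.3, with matplotlib 3.10.9 for the plots, and were tested on simulated data.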

Additional observations from a re-analysis of the deposited data

How the results depend on the processing

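The count of 9 of 10 genes with an IDR summit depended on the window. It was 4 with the gene body only, against 14.7% of all protein-coding genes, and 5 within 500 bp of a TSS, against 20.4%. It was also 5 within 1 kb of a TSS, against 24.4%, and 5 with the 4124 strongest IDR peaks, against 26.9%. With summits counted only where the nearest protein-coding TSS was that of the gene, a rule chosen after the data were seen, it was 4, against 23.4%. When the peak had to be covered in the other replicates with 1 left out, it ran from 6 to 8. With all 3 required it was 6, against 31.1% of all protein-coding genes. Without replicate 1 it was 7 (with Atg3), against 33%, and without replicate 2 it was 8 (with Atg6 and Atg7), against 33.5%. Without replicate 3 it was 6, against 32.5%. The remaining alternatives, such as windows of 1 kb (7, against 31.8%) and 5 kb (9, against 53.3%), gave counts within 1.5 times of 9. Of the 42 other pathway genes with 23 counted, 7 had a summit in the gene body, which is close to the 14.7% of all protein-coding genes. There were 14 within 500 bp and 15 within 1 kb of a TSS, against the 20.4% and 24.4% above. The nearest TSS rule gave 15, against 23.4%, and leaving out a replicate gave 21 to 22, against 32.5% to 33.5%. The share of all genes was 38.5%, and 37.6% for the 11887 genes with a span from 654 to 20688 bp. That range holds most of the 13945 genes, so it matches the span of the 10 genes only loosely. Best ranks moved for Atg13 and Atg8a with 5 kb (827 and 1644), for Atg5 with the gene body only and with 1 kb (974 in both) and for Atg7 with the gene body only (6971). Of the motif counts, 11 moved, as given with the motifs, and 11 did not when 50 or 150 bp were searched instead of 100 bp. No paired analysis was possible because there was only 1 group. Depth is unknown, so a missing region in a replicate cannot be told from too few reads there.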
